A study of Homo sapiens with 2 samples.

Results

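Histone genes were taken as the GENCODE release 44 protein-coding genes whose names start with H1-, H2A, H2B, H3-, H3C, H4C, H4- or MACROH2A, which gave 95 of 20046 protein-coding genes. Of these, 63 were clustered core genes, named with C plus a number, and the other 32 comprised 22 core variant genes, the 6 linker genes H1-1 to H1-6 of the chromosome 6 cluster and 4 other linker genes. H2BC12L was counted as a variant because its name does not end in the number. RBMS3 sites lay on the strand of 11 of the 95 genes, with 48 of the 27706 sites of the list in their exons or introns.

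The study expressed FLAG-tagged RBMS3, an RNA-binding protein, in MDA-MB-231 cells, an established human breast cancer line, and mapped it by CLIP-seq, in which ultraviolet light joins protein to RNA before the protein is purified. The only group, FLAG-RBMS3, held 2 replicates irradiated at 254 nm with 400 mJ/cm2, and the source and cell line labels of replicate 2 give the line's name with another final number. No library from untagged or unirradiated cells was used here. The authors pooled the tags of both replicates before calling sites, so no value below has a replicate error and no class was tested against another. Because the tagged protein was expressed from an introduced construct, the sites describe that protein and not the endogenous one.

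Histones are the proteins around which DNA is wound. The clustered genes are copied into mRNA in S phase, and most of their mRNAs carry no poly(A) tail: they end a few bases after a conserved stem-loop that is bound by the stem-loop binding protein SLBP and cut with the help of the U7 small nuclear ribonucleoprotein. Variant histones are made throughout the cell cycle from ordinary genes, often with introns, whose mRNAs are cleaved downstream of a poly(A) signal and tailed. Some clustered genes also make longer, polyadenylated forms, for example in cells that have left the cycle.

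The gene models carried this division, which the naming rule did not use. A stem-loop, searched as a 6-base stem that starts with GG, ends with CC and pairs throughout with G-T pairs allowed, around a 4-base loop that starts with TT, lay in the 100 nt after the stop codon of 60 of the 63 clustered genes. The 3 without a match were H2BC10, H3C6 and H4C13. It was also found in 6 of 6 linker genes of the cluster, in 0 of the other 4 linker genes and in 3 of 22 core variants (H2AX, H3-4 and H3-7), against 81 (0.404%) of all 20046 protein-coding genes. The 69 histone stem-loops took 8 forms, of which the commonest occurred in 41 genes, and their median start was 37 nt after the stop codon. The following lines give the stem-loops of a clustered gene with the commonest form, of the clustered gene whose extended model holds 2 sites, and of the one variant gene that had both a stem-loop and RBMS3 sites, in 30-nt windows of hg38 read 5′ to 3′ on the transcript strand, with the stem-loop in capitals.
H3C3, chr6:26045842-26045871, + strand: ttgaaaaGGCTCTTTTCAGAGCCactcaca
H2BC15, chr6:27839083-27839112, + strand: ccccaaaGGCTCTTTTCAGAGCCactcagt
H2AX, chr11:119094891-119094920, - strand: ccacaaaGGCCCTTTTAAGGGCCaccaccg

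A poly(A) signal was searched as AATAAA or ATTAAA on the transcript strand, and other forms were not searched here or below. In the last 50 nt of the canonical transcript it was present in 3 of 63 clustered genes and 17 of 22 core variants. The 3 were H2BC21, H2BC9 and H4C11. The share over all protein-coding genes was 77.4%. In H2BC9 and H4C11 the 3′UTR is 47 nt and holds the stem-loop, so the match there need not mark a tailed end. The 3′UTR of H2BC21 is 1804 nt. The median canonical 3′UTR was 60 nt in clustered genes and 192 nt in core variants. Some clustered genes had longer alternative models: in 17 of the 63 the longest annotated 3′UTR exceeded 300 nt (387 to 4597 nt), and 16 of these 17 had a poly(A) signal in the last 50 nt of an annotated transcript.

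Each row of the list is a base at which tags (sequenced RNA fragments collapsed by their molecular identifiers) carried a deletion. A crosslinked amino acid can leave such a trace in the cDNA, but a row alone does not show the origin of its deletion. Each row gives the number of tags covering the base and the number with the deletion. Exonic sites with deletions in under 30% of tags and those with more formed unlike populations over all protein-coding genes. The 84.4% with under 30% had a median of 6369 tags and at least 110, and 76.0% lay within 100 nt upstream of an annotated transcript end. Sites with deletions in 30% or more of tags had a median of 18 tags, and 21.7% lay within that distance. Depth and deletion share moved together, and their part in the results below was not tested, so both counts are given for every class.

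At least 1 exonic site was found in 3 of the 63 clustered genes (4.76%) and in 7 of the 32 others (21.9%), against 32.1% of all protein-coding genes. With sites under 30% only, the counts were 0 of 63 and 7 of 32, against a background of 27.3%. With sites at 10% or more only, they were 3 of 63 and 2 of 32. The contrast between the classes was thus seen only when sites with low deletion shares were counted. The share over all protein-coding genes at 10% or more was not computed, so neither of these counts can be set against a general rate. With any site, and with those under 30%, the share of the 32 other genes was nearer to the background than that of the clustered genes. Neither difference was tested. None of H1-1 to H1-6 had a site, while 2 of the other 4 linker genes did, among them H1-10. Of the core variants, H2AX, H2AZ1, H2AZ2, H3-3B and MACROH2A1 had sites and 17 had none. Whether the 17 are expressed in these cells was not analysed. They include H3-4 and H3-7, which have a stem-loop. In 5 of the 17, under 50% of the 30-base stretches of their exons occur once in the genome.

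**Figure D1:**
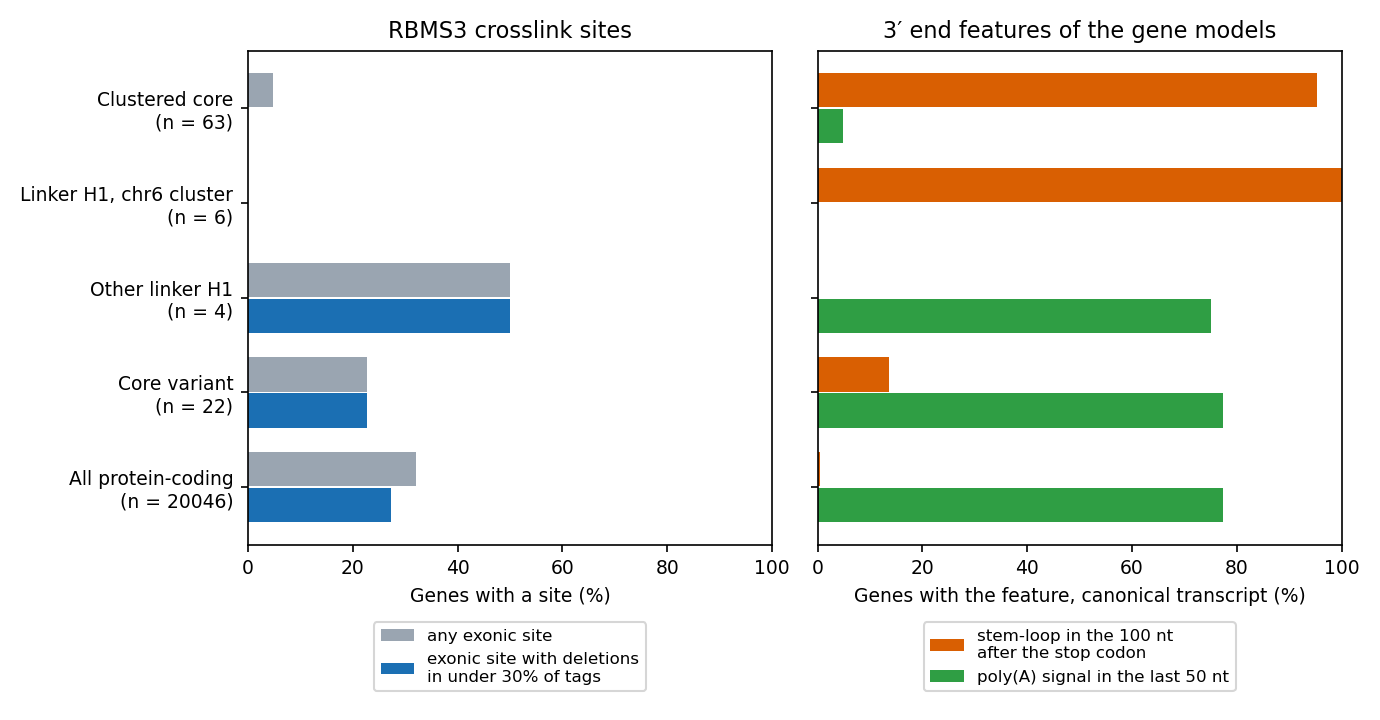
Percentage of genes with a site (left, any exonic site in grey and sites with deletions in under 30% of tags in blue) and with a stem-loop (orange) or a poly(A) signal (green) at the 3′ end of the canonical gene model (right), by class, with the number of genes in brackets. Clustered core genes reach 4.76% on the left and 0 under 30%, with a stem-loop in 60 of 63, while core variants reach 22.7% by either count, with a poly(A) signal in 17 of 22.

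Split by the canonical poly(A) signal alone, 5 of 23 histone genes with the signal and 2 of 72 without it had an exonic site under 30%. The 2 were H2AZ2 and MACROH2A1, whose sites are described below. The 23 include H2BC9 and H4C11, whose match lies in a short 3′UTR with a stem-loop. Over all protein-coding genes the same shares were 29.7% of 15507 genes with the signal and 19.2% of 4539 genes without it. The library preparation added a poly(A) tail to the bound fragments and captured them with oligo(dT), and mRNAs that already carried a tail could be captured without that step. In addition no RNA abundance was analysed. RBMS3 binding, mRNA level, a natural tail and the position of the 3′ end therefore cannot be told apart as sources of the difference between classes.

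The 5 sites on clustered genes were shallow. H2BC15, an H2B gene, had 2, at chr6:27853747 with deletions in 12 of 15 tags (80%, 95% Wilson interval 54.8 to 93.0) and at chr6:27855503 in 13 of 31 tags (41.9%, 26.4 to 59.2). Both lay in the 3′UTR of an extended model, 14642 and 16398 bases of genome downstream of the stem-loop. H3C3, an H3 gene, had 1 site in its 5′UTR with the deletion in 13 of 13 tags, and H2BC17 had 1 in its coding sequence with 7 of 7. H2BC5 had a single intronic site, again 7 of 7, in a stretch that 2 other annotated genes on the same strand share. None of the 5 had deletions in under 30% of tags, and none of the 4 exonic ones lay within 100 nt of a transcript end (206 to 1962 nt). Whether the deletions at these 5 sites stem from crosslinking was not tested. The 30-nt window of the H2BC17 site occurs 4 times in the genome, so that site could belong to another copy. None of the 17 clustered genes with a long annotated 3′UTR had a site under 30%.

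Of the clustered windows, the first H2BC15 site is shown because a poly(A) signal (capitals) lies upstream of its deleted base, which is base 25, and the H3C3 window, deleted at base 16, because it is a 5′UTR site with no such signal.
H2BC15 site 1, chr6:27853723-27853752, + strand: acaaAATAAAtttttatatctttctcttat
H3C3 site 1, chr6:26045379-26045408, + strand: tcactacacttttgtgtgtgctctcattgc

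The other histone genes held 43 sites, 42 of them exonic and every exonic one in a 3′UTR. Of all 48 histone sites 91.7% lay in a 3′UTR, against 84.8% of all sites in protein-coding genes, a difference that was not tested. The 43 sites were covered by a median of 8191 tags (11 to 43992) and carried a median of 84 deletions (11 to 916). Over the 22196 exonic sites of all protein-coding genes the medians were 4660.5 tags and 63 deletions. In 41 of the 43 the deletion was in under 30% of tags. With only sites under 30% on both sides, the median was 8392 tags for these 41 and 6369 over all protein-coding genes. Neighbouring sites share many of the same tags, and the 48 histone sites formed 18 clusters of sites no more than 50 nt apart, so single sites are not independent.

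**Figure D2:**
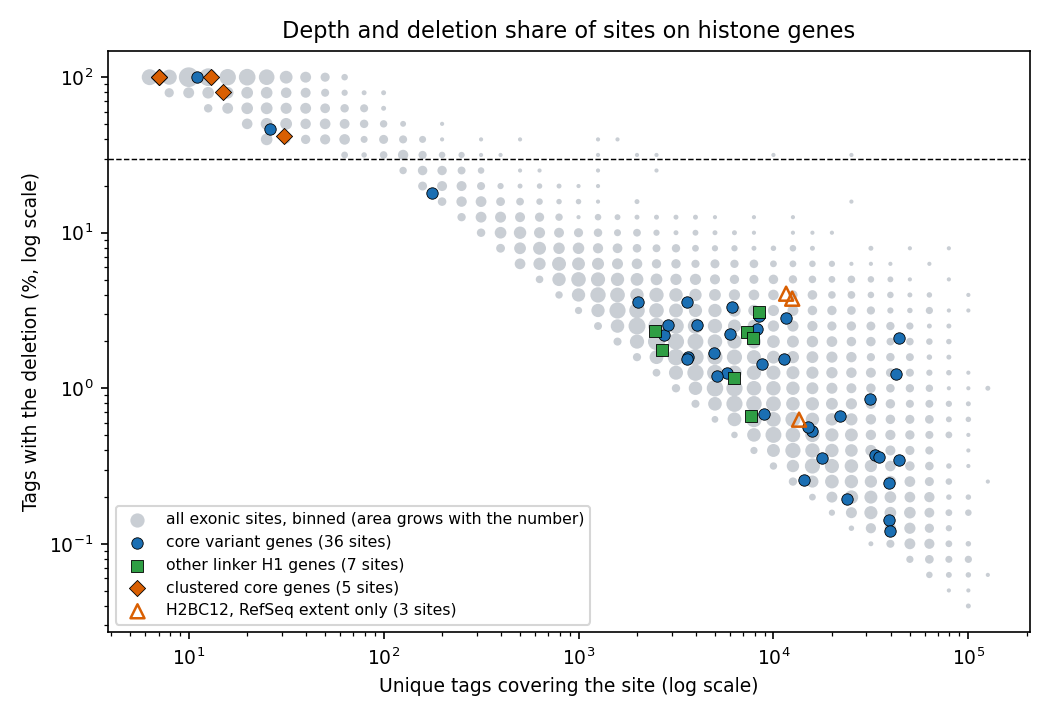
Unique tags covering each site (x axis, log scale) against the percentage of them with the deletion (y axis, log scale) for histone sites by class, over the binned exonic sites of all protein-coding genes (grey). The 5 clustered sites lie above the dashed 30% line with 7 to 31 tags, most variant and linker sites lie below it with far more tags, and the open triangles are 3 sites that fall in H2BC12 only by its RefSeq extent.

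H2AZ1 and H2AZ2 encode H2A.Z, the variant placed around transcription start sites. H2AZ1 (chr4:99948086-99950355, - strand) had 8 sites, all within 57 nt of its most downstream annotated end. The strongest carried 916 deletions in 43834 tags (2.09%, Wilson interval 1.96 to 2.23) at chr4:99948108, and only 146 of the 6440 genes with an exonic site had a site with more deletions. The gene was also deep, with 127 genes having a site with more tags. The median deletion share over all protein-coding exonic sites was 2.05%, and 1.58% over those under 30%. The site at chr4:99948108 lay directly before the first base of the poly(A) signal. A base inside the signal, at chr4:99948106, carried 523 in 42578 tags (1.23%), and the remaining 6 sites carried 48 to 196. Tags rose from 8191 at the most upstream site to 43992 next to the signal and stood at 39259 nearest the end. The windows of the 2 upstream sites occur 2 and 3 times in the genome, and those of the other 6 once.

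H2AZ2 (chr7:44826791-44848087, - strand) had 13 sites, the largest number on a histone gene. Of these, 9 lay 11 to 59 nt before the most distal end, with 37 to 264 deletions in 11357 to 34947 tags. The strongest of the 9, at chr7:44826824, carried 264 in 31181 tags (0.847%, 0.751 to 0.955), a smaller share than at H2AZ1. Another pair lay 14 and 30 nt before a proximal annotated end, with 72 of 5751 tags (1.25%) and 60 of 2729 tags (2.20%). Neither AATAAA nor ATTAAA lay within 25 nt of that pair. The remaining 2 sites were thin: 11 of 11 tags in the 3′UTR between these ends and 12 of 26 tags in an intron. The canonical transcript of H2AZ2 ends at neither of these site groups, so its own last 50 nt bear on neither.

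**Figure D3:**
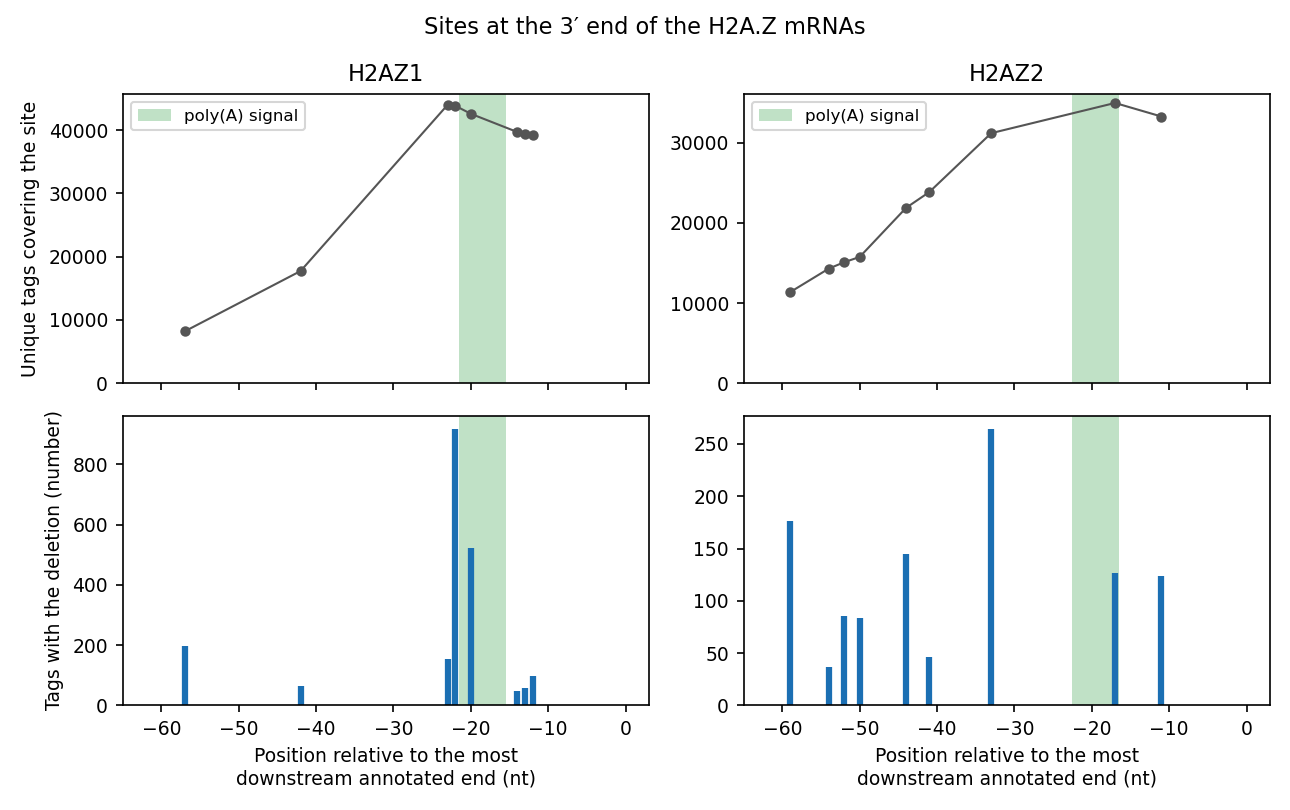
Unique tags covering each site (top) and tags with the deletion (bottom) against distance to the most downstream annotated end, in nt, for the 8 sites of H2AZ1 and the 9 distal sites of H2AZ2, with the poly(A) signal shaded. In H2AZ1 the deletions peak at the signal with 916 of 43834 tags, and in H2AZ2 the highest column, 264, stands 33 nt from the end.

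H3-3B (chr17:75776434-75785893, - strand) encodes H3.3, the replacement H3 that is deposited outside replication. Its 10 sites fell into 4 groups along a 3′UTR of 2164 nt. The group with the most deletions lay at an alternative end, where chr17:75778044 carried 326 deletions in 11561 tags (2.82%, 2.53 to 3.14), 24 nt from that end and 1610 nt from the canonical one. Another group of 5 sites lay 1031 to 1087 nt from the nearest end, with 56 to 133 deletions in 3614 to 5964 tags. A single base 110 nt from an end carried 73 of 2023 tags. Near the canonical end the only site had 32 of 177 tags (18.1%, 13.1 to 24.4), the thinnest of the 41 sites under 30%. H3-3A, looked up after the values were seen, encodes the same protein and had no site. Its 30-mers were 74.7% unique, and its canonical transcript ends with a poly(A) signal.

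H2AX encodes the variant phosphorylated at DNA breaks and was the only histone gene with both a stem-loop and sites under 30%. Its model (chr11:119093874-119095465, - strand) has the stem-loop 50 nt after the stop codon and runs on to a 3′UTR of 1092 nt. The sites were at the far end, 999 and 984 nt downstream of the stem-loop and 20 and 35 nt before the nearest annotated end. They carried 204 deletions in 6155 tags (3.31%, 2.90 to 3.79) and 58 in 3642 tags (1.59%, 1.23 to 2.05). No site lay on the stem-loop itself. Within this gene the sites were thus at the end with a poly(A) signal and not at the stem-loop.

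MACROH2A1 encodes macroH2A1, a variant with a large extra domain that is enriched on the inactive X chromosome. Its 3 sites carried 246 of 8420 tags (2.92%, 2.58 to 3.30), 103 of 4049 (2.54%) and 74 of 2884 (2.57%), at 0 to 4 nt from the nearest of its annotated ends and 19 to 40 nt from the most downstream one. No AATAAA or ATTAAA lay within 25 nt of any of the 3. An antisense gene, PITX1-AS1, overlaps them on the opposite strand.

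H1-10 is a linker histone, a protein that binds DNA where it enters and leaves the nucleosome, and its mRNA is tailed. The gene (chr3:129314771-129316286, - strand) had 1 site, 10 nt from an end, with 58 deletions in 2479 tags (2.34%, 1.81 to 3.01).

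The strongest site of each of these genes is shown with any poly(A) signal in capitals, to let the deleted base be set against the signal. Counted from 1 at the 5′ end, the deleted base is number 12 in H2AZ1, 7 in H2AZ2, 11 in H3-3B, 12 in H2AX, 16 in MACROH2A1 and 21 in H1-10.
H2AZ1, chr4:99948090-99948119, - strand: gtggataagttcAATAAAggtcatatccca
H2AZ2, chr7:44826801-44826830, - strand: ctagcttatatgatggaATTAAAtatattc
H3-3B, chr17:75778025-75778054, - strand: tcaacatttttaaATTAAAtgttttacatt
H2AX, chr11:119093881-119093910, - strand: tggactaattttATTAAAggattgtttttt
MACROH2A1, chr5:135334386-135334415, - strand: ttgtgtgagttgatttagtaaaatgttaaa
H1-10, chr3:129314772-129314801, - strand: tttgggcacAATAAAgcgtttaaacctttc

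In 4 of these 6 windows the deleted base lay upstream of the signal and in H1-10 downstream of it. The MACROH2A1 window held neither AATAAA nor ATTAAA, the only forms searched. Across the 42 exonic sites other than clustered ones, 21 (50%) had a signal within 25 nt, starting between 12 nt upstream and 19 nt downstream of the deleted base, with 11 starts downstream and 10 upstream. Over all 46 histone exonic sites the share was 47.8%, against 63.2% over all protein-coding exonic sites. The gap depended on the window: with 10 nt on each side the shares were 26.1% and 31.3%, and with 50 nt they were 73.9% and 74.4%. With only sites under 30% and 25 nt they were 51.2% of the 41 histone sites and 71.4% over all. With 1 site per cluster and 25 nt they were 43.8% and 57.2%. Of the same 42, 35 (83.3%) lay within 100 nt of an annotated end, at a median of 34 nt, against 67.6% and 35 nt over all. With only sites under 30% on both sides the shares were 85.4% and 76.0%. The median distance was thus near that of sites in general, while the share within 100 nt was higher, and neither was tested. With 1 site per cluster, 56.3% of the histone exonic sites of all classes lay within 100 nt, at a median of 54.5 nt. These 2 values were not set against 1 site per cluster over all protein-coding genes. The deleted base was T in 36 of the 46 histone exonic sites, against 65.0% over all, and in 37 of the 41 under 30% it stood in a run of at least 2 equal bases, within which a deletion cannot be placed exactly.

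**Figure D4:**
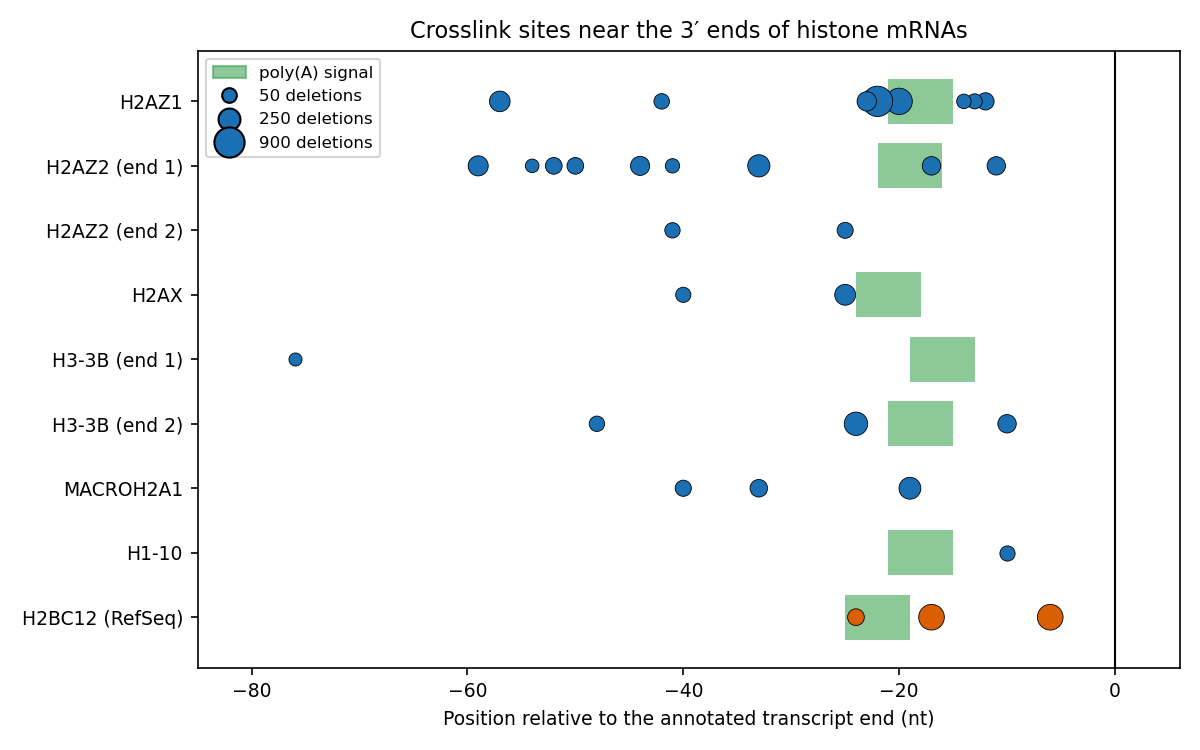
Sites within clusters that lie near an annotated end, plotted by distance upstream of that end in nt (x axis), 1 line per end of the genes described, with circle area growing with the number of deletions and poly(A) signals as green bars. Blue circles follow GENCODE ends and orange circles the RefSeq end of H2BC12. In H2AZ1 the largest circle, 916 deletions, touches the signal. MACROH2A1 has no signal bar because neither AATAAA nor ATTAAA was found near its end.

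The AUA motif, the element that the study relates to RBMS3, was searched on the transcript strand as a 7-base pattern (A, G or T, then A or T, then ATA, then A or T, then A). It can overlap a poly(A) signal. The study's methods also report the AATAAA signal as the most significant motif at its RBMS3 sites. The AUA motif was present within 25 nt of 12 of 46 histone exonic sites (26.1%), against 50.1% over all protein-coding exonic sites. In 10 of the 12 every match overlapped a poly(A) signal, an overlap that was not counted for sites of other genes. With 10 nt on each side the shares were 13.0% and 22.9%, and with 50 nt 50% and 61.0%. With 1 site per cluster and 25 nt they were 25% and 45.2%. H2AZ1, which had the most deletions of the histone genes, had no AUA match within 25 nt of any of its 8 sites, and neither had H2AX or MACROH2A1. The 48 sites come from 11 genes, so these shares turn on few sequences.

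One clustered gene stood apart when another annotation was used, a comparison added after the values were seen. All 95 symbols were found in the RefSeq table for GRCh38.p14, the same build, and only H2BC12 gained sites from its RefSeq extent. GENCODE places H2BC12, an H2B gene, at chr6:27146361-27146855 on the - strand with the stem-loop 37 nt after the stop codon, whereas RefSeq lets it run from 27138293 to 27146858. At the far end of that extent were 3 sites, 6, 17 and 24 nt before it and 8044 to 8062 bases beyond the GENCODE end. They carried 471 deletions in 11615 tags (4.06%, 3.71 to 4.43), 470 in 12483 tags (3.77%, 3.45 to 4.11) and 85 in 13534 tags (0.628%, 0.508 to 0.776). Only 463 genes had a site with more deletions than the first, a rank that takes no account of depth. GENCODE lists a long noncoding RNA, ENSG00000290032 (chr6:27138293-27138540, - strand), at the same place, and an H2BC12 transcript and this RNA cannot be told apart from the list.

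The window of the strongest of these sites is shown beside the stem-loop of the same gene, since the first lies at the RefSeq end and the second at the GENCODE end. Capitals mark the poly(A) signal, with the deleted base at number 25, and the stem-loop.
H2BC12 RefSeq end, chr6:27138294-27138323, - strand: accttAATAAAtttgtatgccttttctctt
H2BC12 stem-loop, chr6:27146359-27146388, - strand: ccccaaaGGCTCTTTTAAGAGCCacttaaa
If these sites were counted, 1 of 63 clustered genes would have a site under 30% in place of 0, and it would lie at a signal-bearing end and not at the stem-loop.

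Near-identical copies can lose tags at alignment, so repeated sequence was counted in each gene. The median share of exonic 30-mers that occur once in hg38 was 89.0% in the 63 clustered genes and 87.5% in the 22 core variants, and it was under 50% in 13 and 5 genes. The paired genes H2AC18 and H2AC19, H3C14 and H3C15, and H4C14 and H4C15 had none. The 6 linker genes of the cluster, which had no site, were at least 98.2% unique. The loss of tags at alignment was not measured, and its part in the missing sites was not tested.

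**Figure D5:**
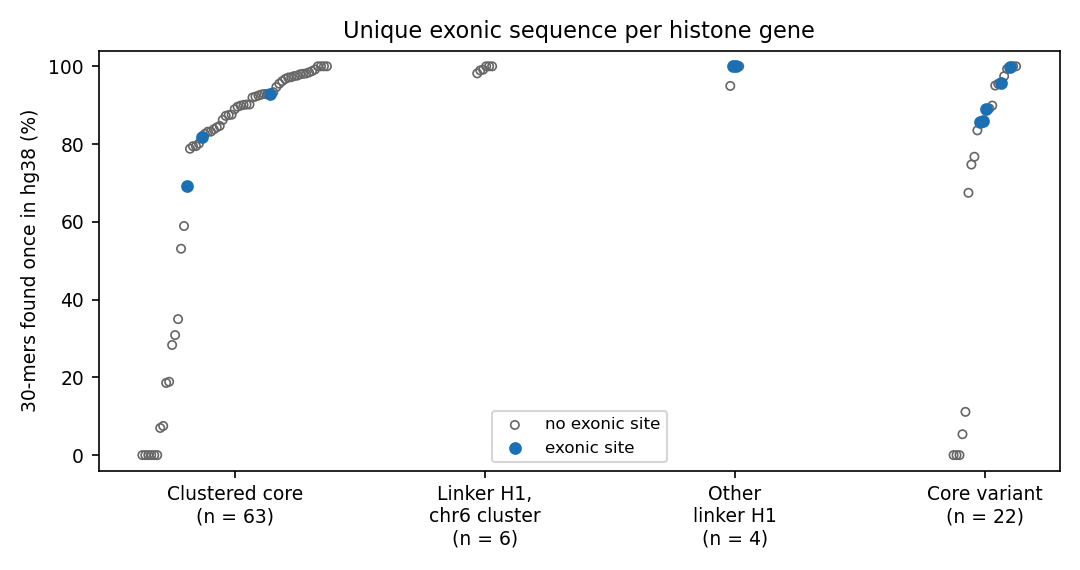
Percentage of exonic 30-mers of each histone gene that are found once in hg38 (y axis), by class, with 1 circle per gene in increasing order within a class and filled circles for genes with an exonic site. Most genes without a site lie above 50%, and 13 clustered genes and 5 core variants lie below it.

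Genes that make or handle histone mRNAs and proteins were counted beside the histone genes, in 2 lists chosen with earlier results of these data known. Of 15 genes for 3′ processing and decay of histone mRNA, 9 (60%) had an exonic site and 8 (53.3%) one under 30%, since the only site of LSM11 had the deletion in 27 of 27 tags. The strongest were SLBP, which encodes the stem-loop binding protein, with 245 deletions in 8233 tags, LSM1, of the cytoplasmic decay ring, with 240 in 5460, and CASP8AP2, needed for histone transcription, with 158 in 7314. Of 17 histone chaperones, 11 (64.7%) had one, each with a site under 30%, led by NPM1 (471 of 27537 tags), NAP1L1 (383 of 18260) and SUPT16H, a subunit of FACT (323 of 5451). The shares over all protein-coding genes were 32.1% and 27.3%, which include genes not expressed in these cells.

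Within the cluster region itself (chr6:25723397-27893891), which holds 55 histone genes, the list had 28 sites, of which 5 were on histone genes and 16 had deletions in under 30% of tags. None of those 16 lay on a histone gene as GENCODE gives it. The 87 histone pseudogenes of the annotation held no site.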

How the data were processed

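Sites of RBMS3 with a FLAG tag, mapped by CLIP-seq in the MDA-MB-231 line (1 group, 2 replicates by the sample titles) were analysed. RNA was trimmed by RNase, tailed with poly(A), captured and primed with oligo(dT), which bears on transcript ends. Per the study's methods and the labels, the authors collapsed reads by molecular identifiers, aligned them to hg38 with the CLIP Tool Kit, pooled both replicates and called deletion sites, keeping those under a false discovery rate of 10% and past a fold limit that the methods leave unexplained. Deposited values are counts without normalization, of tags over each site and of tags with its deletion. Library depths and per-replicate counts were not analysed here, so precision is given per site as 95% Wilson intervals (counting error only).

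The deleted base was taken as the centre of each 21-nt interval. Sites were placed on GENCODE 44 by strand over all transcripts in the order 3′UTR, 5′UTR, coding sequence, other exon and intron, and distances ran downstream to the nearest annotated end. Members and lists were chosen with earlier results of these data known. Every histone gene with a site is named except 1 that is not reported here, genes without one are named where none of a class had a site and it held at most 10, and the 3 list genes with the most deletions are named. No test was possible with 1 pooled group. Alternatives varied the limits on deletions and deletion share, transcripts, gene extents, strand, class borders, distance limit, motif window and clustering. The searches were tested on simulated data. Python 3.11.15, pandas 2.3.3, scipy 1.17.1, pysam 0.24.0 and samtools 1.23.1 were used.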

Additional observations from a re-analysis of the deposited data

How the results depend on the processing

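Of 63 alternative values, 43 stayed within 1.5 times of a count, within the 95% interval of a share, or within that of the median. The intervals of the shares and of the median treat single sites as independent, which neighbouring sites are not. The tally therefore only describes how far values moved and is no measure of precision. No paired analysis was possible because the replicates were pooled into 1 column, and no replicate could be left out for the same reason. With at least 20 deletions or deletions in under 30% of tags, clustered genes with a site fell from 3 to 0 and the 3′UTR share of histone sites rose from 91.7% to 100%. Over all sites in protein-coding genes, with neither limit applied, the 3′UTR share was 84.8%. With RefSeq extents and under 30% of tags, 1 clustered gene remained, an alternative chosen after seeing the data, as was limiting to windows found once in the genome, which left 2 clustered genes and 7 others. With deletions in at least 10% of tags, 3 of 63 clustered genes and 2 of 32 others had a site, so the contrast between them nearly disappeared. No share over all protein-coding genes was computed at that limit, so neither count can be set against a general rate. The limit left 8 sites, 50% of them in 3′UTRs. Among the 6 exonic ones, 16.7% lay within 100 nt of an end and 16.7% had a poly(A) signal, with a median distance of 354 nt. With 1 transcript per gene, 66.7% of sites were in 3′UTRs and 61.8% within 100 nt of the end. With 1 site per cluster, 77.8% were in 3′UTRs, 56.3% within 100 nt, and the median distance was 54.5 nt against 36 nt. Windows of 10 and 50 nt gave a poly(A) signal in 26.1% and 73.9% and the AUA motif in 13.0% and 50% of sites, against 47.8% and 26.1%. Sites called on pooled tags can rest on 1 replicate, and genes with few tags cannot be called.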
